A study of Mus musculus with 8 samples.

Results

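The genes described here make cholesterol and fatty acids. They are 33 genes chosen by name from the 24391 in the deposited count table, as 7 genes of the mevalonate steps, 10 of the squalene and sterol ring steps, 5 that regulate the pathway or carry sterol, 8 of fatty acid synthesis and 3 of polyunsaturated fatty acid synthesis. Of the 33, 32 passed the filter on low counts, as did 15980 genes in all, and 1, Hmgcs1, had no count in any library. RNA was taken from the atherosclerotic brachiocephalic artery, a branch of the aortic arch, of C57BL/6 mice described as wild type with a smooth muscle lineage tracing label and kept on a Western diet for 18 weeks. In 1 group 4 mice had been injected with an antibody against the cytokine IL-1β, and in the other 4 mice had received control IgG, so the comparison asks what blocking IL-1β did to these lesions. The promoter that drives the label, any other allele, the sex and age of the mice, and the dose and duration of the antibody are not given in the sources used here. Each library is the total RNA of 1 flash-frozen vessel, labelled as a mixture of smooth muscle cells, epithelial cells, macrophages and others.

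Cells build cholesterol from acetyl-CoA through mevalonate, the isoprenoid farnesyl diphosphate, squalene and lanosterol. Fatty acids come from the same acetyl-CoA through malonyl-CoA. The SREBP transcription factors drive both pathways: with plentiful sterol, INSIG proteins hold SREBP and its escort SCAP in the endoplasmic reticulum, and with little sterol SREBP is carried to the Golgi, cut, and sent to the nucleus. SREBP-2, from Srebf2, acts mainly on sterol genes and SREBP-1c, from Srebf1, mainly on fatty acid genes, where insulin and the liver X receptors act too. In a vessel wall the sterol genes are active in many cell types, and cholesterol-laden macrophages are known to keep them low, whereas fatty acid synthesis is most active in adipocytes, which lie in the fat around the artery.

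SREBP is known to bind sterol regulatory elements, often next to the box bound by NF-Y, so the promoters of members were read for both. RefSeq promoter windows (GRCm38.p6; 250 bases before to 50 after the start) matched 26 of the 33 members by symbol. The NF-Y box CCAAT, on either strand, was in 13 of 14 sterol pathway members with a window (92.9%; Acat2 lacked it), 3 of 4 regulators, and 5 of 8 fatty acid members (62.5%), against 41.1% of 27025 genes with a window. The sterol regulatory element TCACNCCAC, also on either strand, was in 1 member, Hmgcs1, against 1.44% of all genes. Only this exact sequence was searched, so elements with other letters are missed and no member is shown to lack one. The E-box CACGTG, which also binds SREBP-1 and is the same on both strands, was in 6 of 26 members (23.1%) against 8.09% of all genes. The 150 bases before the start are shown 5′ to 3′ on the gene's strand for 6 members that the results below turn on. They are Hmgcs1, the only one matching TCACNCCAC, 3 sterol genes that were highest in the same animal, Ebp, which was not, and Fasn. Capitals mark the sterol regulatory element in Hmgcs1 and the NF-Y box, which reads ATTGG where it lies on the other strand.
Hmgcs1 (chr13:119690201-119690350, plus strand): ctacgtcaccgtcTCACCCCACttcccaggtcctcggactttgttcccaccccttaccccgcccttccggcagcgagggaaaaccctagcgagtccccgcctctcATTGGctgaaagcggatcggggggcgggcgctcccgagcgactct
Idi1 (chr13:8885456-8885605, plus strand): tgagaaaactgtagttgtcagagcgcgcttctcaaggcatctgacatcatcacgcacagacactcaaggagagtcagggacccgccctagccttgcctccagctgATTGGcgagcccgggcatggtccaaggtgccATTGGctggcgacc
Lss (chr10:76531455-76531604, plus strand): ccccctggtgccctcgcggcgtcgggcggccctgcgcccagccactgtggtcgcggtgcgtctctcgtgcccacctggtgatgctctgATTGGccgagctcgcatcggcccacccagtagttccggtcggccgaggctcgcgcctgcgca
Cyp51 (chr5:4104698-4104847, minus strand): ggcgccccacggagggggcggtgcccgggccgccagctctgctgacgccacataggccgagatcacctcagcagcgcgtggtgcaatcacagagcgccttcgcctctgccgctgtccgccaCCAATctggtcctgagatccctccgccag
Ebp (chrX:8193513-8193662, minus strand): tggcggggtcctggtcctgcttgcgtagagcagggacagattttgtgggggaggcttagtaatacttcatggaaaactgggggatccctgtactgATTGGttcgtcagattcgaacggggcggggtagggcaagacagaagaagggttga
Fasn (chr11:120824548-120824697, minus strand): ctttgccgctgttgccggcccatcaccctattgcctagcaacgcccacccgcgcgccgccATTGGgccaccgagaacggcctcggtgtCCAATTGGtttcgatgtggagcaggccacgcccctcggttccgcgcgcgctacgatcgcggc
In Hmgcs1 the sterol element began 137 bases before the start and the only NF-Y box in the bases shown 45. Its whole window also held NF-Y boxes at 237 and 176 bases before the start and 1 past the start. In the 150 bases shown, Idi1 held 2 NF-Y boxes and Fasn 3, of which a pair overlap, 1 on each strand. Ebp had the box at 55 bases, so the box was present both in sterol genes that were highest in IgG animal 1 and in the one that was not. These matches are letters in a window and were not tested as binding sites.

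Across the 8 libraries 20137336 to 29453014 reads were assigned to genes. Levels are given as CPM, counts scaled to a common library size with TMM factors, which were 0.953 to 1.05. In edgeR's quasi-likelihood test with Benjamini-Hochberg adjustment, 0 of 15980 genes passed 0.05 (smallest adjusted p = 0.208), with 8 genes in DESeq2 and 2 in limma-voom, none of them a member, and 509 genes at an unadjusted p under 0.05. Smooth muscle, macrophage and fat genes were all present: Myh11, smooth muscle myosin, ran from 587 to 1652 CPM, the macrophage gene Cd68 from 130.4 to 361 CPM, Adipoq, the fat cell hormone adiponectin, from 176 to 405 CPM, and Ucp1 of brown fat from 712 to 3059.6 CPM. Genes of the epithelial cells in the labels went different ways. The keratin gene Krt5 was at 0 in 3 animals and reached 7.15 CPM in IgG animal 1, and Krt14 and Epcam were also at 0 in some animals. The keratin gene Krt18 and the adhesion gene Cdh1 were counted in all 8 animals, from 3.805 to 12.2 CPM and from 2.88 to 6.95 CPM. In bulk tissue fewer cells of a type and less RNA per cell cannot be told apart.

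The members differed widely in level. Together they took 2.64% to 6.79% of all assigned counts, of which Scd1, the stearoyl-CoA desaturase of adipose tissue and skin, took 1.66% to 3.86% and Fasn, fatty acid synthase, 0.429% to 1.76%. The sterol pathway members took 0.036% to 0.099%. Per kilobase of the deposited exon length, Scd1 was first with a mean of 4949.9 CPM per kb over the 8 animals, then Fasn with 964, Acly with 326, Acaca with 170.2 and Scd2 with 136. The ranges of Scd1 (3267 to 7857 CPM per kb) and Fasn (429 to 1739.9) did not overlap, while those of Fasn and Acly (128 to 748) did. The highest sterol pathway member was Acat2 at 36.2 CPM per kb, and the lowest member was Hsd17b7 at 4.52. Fatty acid synthesis genes held the first 6 places, and 5 of the last 6 were sterol enzymes.

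With the antibody, no sterol or fatty acid gene was distinguishable from the IgG controls. Of 32 members 0 passed the adjusted threshold (adjusted p = 0.9997 for each, edgeR) and 0 were at an unadjusted p under 0.05, where 3.19% of all genes were (1.13% higher and 2.06% lower). The smallest unadjusted p was 0.448, for Fdft1, by the same edgeR test. The groups overlapped for all 32, against 1.96% of genes whose groups did not overlap. The fold changes were small and mostly above 0: 26 of 32 were positive, where 47.7% of all genes were, with a median log2 fold change (antibody over IgG) of 0.093 against -0.0096 over all genes. Members share their animals, so their signs are not independent. With 1 animal left out, the number positive ran from 12 (without IgG animal 3) to 31 (without IgG animal 1). The 16 sterol pathway members had a median of 0.11 and ran from -0.12 to 0.27, and the 11 fatty acid members a median of 0.050 from -0.19 to 0.12.

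The 95% intervals were wide. For 24 of 32 members (75.0%) the 95% interval excluded changes past 2-fold up or down, as it did for 81.0% of all genes. The median distance from the estimate to the end of that interval was 0.77 on the log2 scale for members and 0.40 for all genes. Members also varied more between animals: the highest animal was a median of 2.64-fold above the lowest, against 1.72-fold for all genes.

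IgG animal 1 stood apart from the other controls. It was the highest of all 8 animals for 23 of 32 members, where it was the highest for 13.6% of all genes. Among sterol pathway members it was the highest for 15 of 16, the exception being Ebp. It lay above 2-fold the median of the other 3 IgG animals for 21 of 32 members (13 of 16 sterol and 6 of 11 fatty acid members), against 7.89% of all genes. The animal was singled out after these values were seen. Its library, with 28747515 assigned counts, was within the range of the others. Values without it are given for each group of members below. Where it held the highest control value, its removal raises the fold change by construction.

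**Figure D1:**
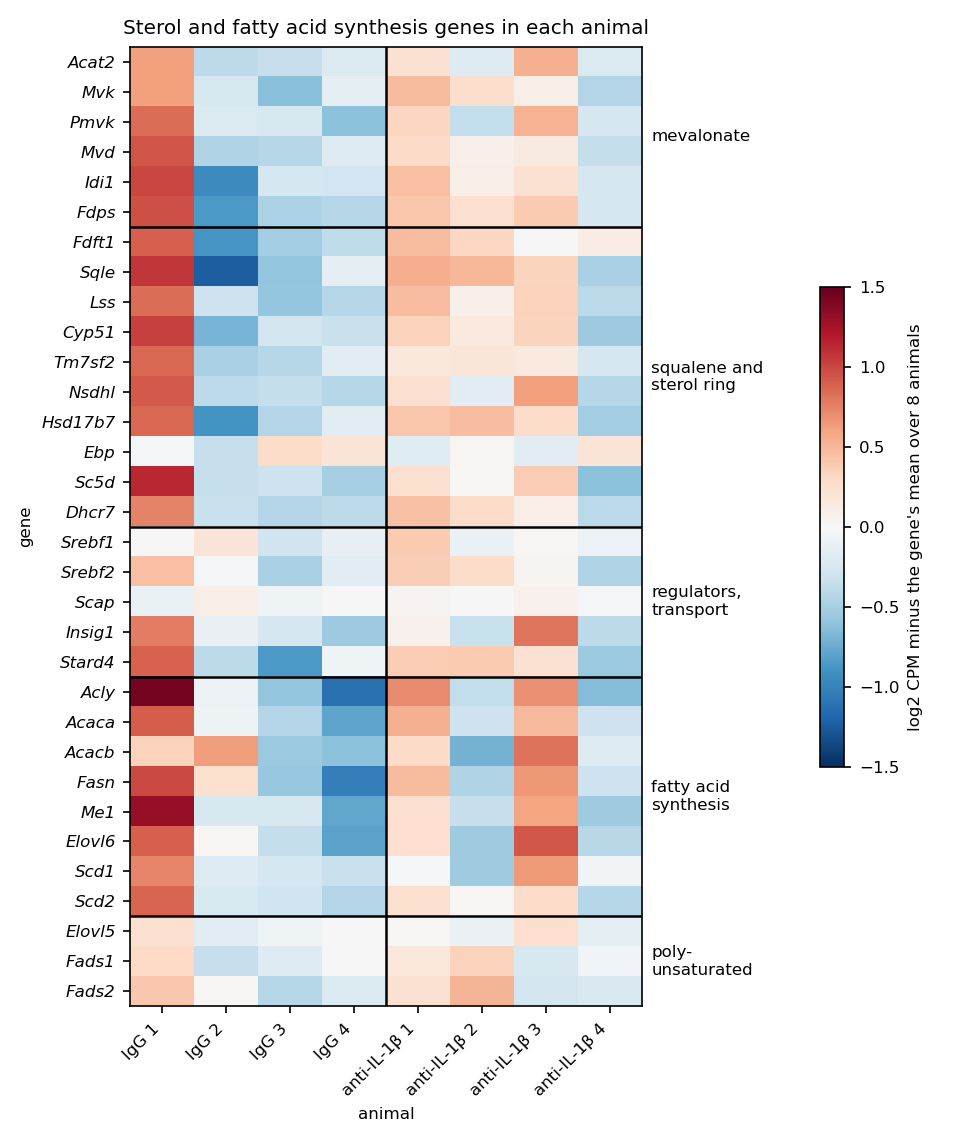
Level of each of the 32 counted members (rows, in order of pathway step) in each of the 8 animals (columns), as log2 CPM minus the gene's mean over the 8 animals; red is above that mean and blue below, and lines separate the groups. The first column, IgG animal 1, is red for nearly all rows and is the highest of all animals for 23 of 32 genes, while IgG animals 2 to 4 are mostly blue.

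The mevalonate steps turn acetyl-CoA into farnesyl diphosphate. Hmgcs1, HMG-CoA synthase, was listed at 0 in all 8 libraries: its exons in the table lie on unplaced chromosome 13 sequence of mm9, and all 63 genes with every exon on such sequence had no count, so the 0 says nothing of its expression. Idi1, which isomerises the first isoprenoid unit, had 24.8, 6.36, 10.3 and 10.2 CPM in IgG animals 1 to 4 and 16.9, 13.2, 14.5 and 10.4 CPM in antibody animals 1 to 4. Fdps, farnesyl diphosphate synthase, had 87.5, 24.7, 32.3 and 33.5 CPM in IgG animals 1 to 4 and 59.7, 52.9, 58.8 and 37.8 CPM in antibody animals 1 to 4. In both genes IgG animal 1 was the highest and IgG animal 2 the lowest, 3.89-fold and 3.54-fold apart, with the antibody animals in between. Their log2 fold changes were 0.088 ± 0.37 (SE; 95% interval -0.74 to 0.91) and 0.23 ± 0.37 (-0.59 to 1.06).

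The other 4 counted mevalonate genes also peaked in IgG animal 1. Acat2, the cytosolic thiolase that makes acetoacetyl-CoA, had 71.4 ± 26.5 CPM with IgG and 78.8 ± 20.2 CPM with the antibody (SD, n = 4), with a log2 fold change of 0.14 ± 0.26. Mvk and Pmvk, the kinases that phosphorylate mevalonate, had 14.4 to 34.3 CPM and 20.7 to 56.6 CPM over the 8 animals, and log2 fold changes of 0.15 ± 0.27 and 0.052 ± 0.32. Mvd, the decarboxylase that follows, had 12.2 to 32.0 CPM and -0.041 ± 0.31. For all 4 the highest value was that of IgG animal 1, 1.81-fold (Mvk) to 2.59-fold (Mvd) the median of the other IgG animals.

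Next come squalene synthesis and closure of the first ring, and Sqle varied most between animals among the sterol genes, 4.99-fold. Fdft1, squalene synthase (mm9 chr14:63763988-63798415, minus strand), had 102, 29.7, 38.2 and 42.1 CPM in IgG animals 1 to 4 and 75.2, 68.0, 54.3 and 59.2 CPM in antibody animals 1 to 4. Sqle, squalene epoxidase, a rate-limiting step (mm9 chr15:59146647-59162748, plus strand), had 77.9, 15.6, 24.5 and 33.7 CPM in IgG animals 1 to 4 and 53.8, 52.3, 46.6 and 26.4 CPM in antibody animals 1 to 4. Lss, lanosterol synthase, had 59.2, 26.6, 22.2 and 24.7 CPM in IgG animals 1 to 4 and 45.6, 34.9, 41.9 and 25.1 CPM in antibody animals 1 to 4. IgG animal 1 was on top for each gene, the other 3 IgG animals were at the bottom or near it, and antibody animal 4 lay among them for Sqle and Lss. For Fdft1 all 4 antibody animals lay above the 3 lower controls. The fold changes over all animals were 0.27 ± 0.35 for Fdft1 (95% interval -0.51 to 1.05), 0.24 ± 0.45 for Sqle (-0.77 to 1.24) and 0.15 ± 0.32 for Lss (-0.57 to 0.88), on the log2 scale. Exons of Fdft1 overlap those of Ctsb, the lysosomal protease gene on the opposite strand, over 773 of 3697 bases (20.9%), and Lss shares 6.02% of its length with 4930483K19Rik. The counting command names no strand option, and reads that overlap exons of more than a single gene were left unassigned as ambiguous. Reads from those bases are therefore missing, and both values may be too low to that degree. Srebf1 shares 2.49% of its length with Rai1, and Scd2, Me1 and Tm7sf2 share at most 1.12% with other genes. Fdft1 was not among the genes set to be shown in full and was added after its values were seen.

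The ring steps convert lanosterol to cholesterol. Cyp51, which removes a methyl group from lanosterol, had 96.3, 29.2, 38.8 and 37.4 CPM in IgG animals 1 to 4 and 59.8, 52.4, 59.5 and 32.2 CPM in antibody animals 1 to 4. Dhcr7, which makes cholesterol from its last precursor, had 46.5, 21.95, 20.5 and 21.2 CPM in IgG animals 1 to 4 and 37.7, 33.6, 29.8 and 21.0 CPM in antibody animals 1 to 4. In Dhcr7 the 3 other IgG animals lay within 20.5 to 21.95 CPM, with antibody animal 4 among them and antibody animals 1 to 3 between these and IgG animal 1. The log2 fold changes were 0.014 ± 0.37 (95% interval -0.81 to 0.84) and 0.15 ± 0.29 (-0.50 to 0.80). Tm7sf2, a sterol reductase, Nsdhl and Hsd17b7, both of the demethylation complex, and Sc5d, a desaturase, had 5.76 to 14.7 CPM, 20.3 to 52.0 CPM, 10.3 to 34.9 CPM and 37.5 to 126 CPM. IgG animal 1 was the highest in all 4, at 2.45, 2.49, 2.47 and 2.79-fold the median of the other controls, and their log2 fold changes were 0.0063 ± 0.30, 0.057 ± 0.34, 0.21 ± 0.36 and -0.12 ± 0.38.

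Ebp, the sterol isomerase, was the exception and was added here after its values were seen. It had 20.3, 16.3, 25.03 and 23.96 CPM in IgG animals 1 to 4 and 18.3, 21.1, 18.6 and 23.9 CPM in antibody animals 1 to 4. The animals stood in another order, with IgG animal 3 the highest and IgG animal 2 the lowest, 1.53-fold apart, and IgG animal 1 at 0.845 times the median of the other controls. Its log2 fold change was -0.066 ± 0.16 (95% interval -0.42 to 0.28).

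**Figure D2:**
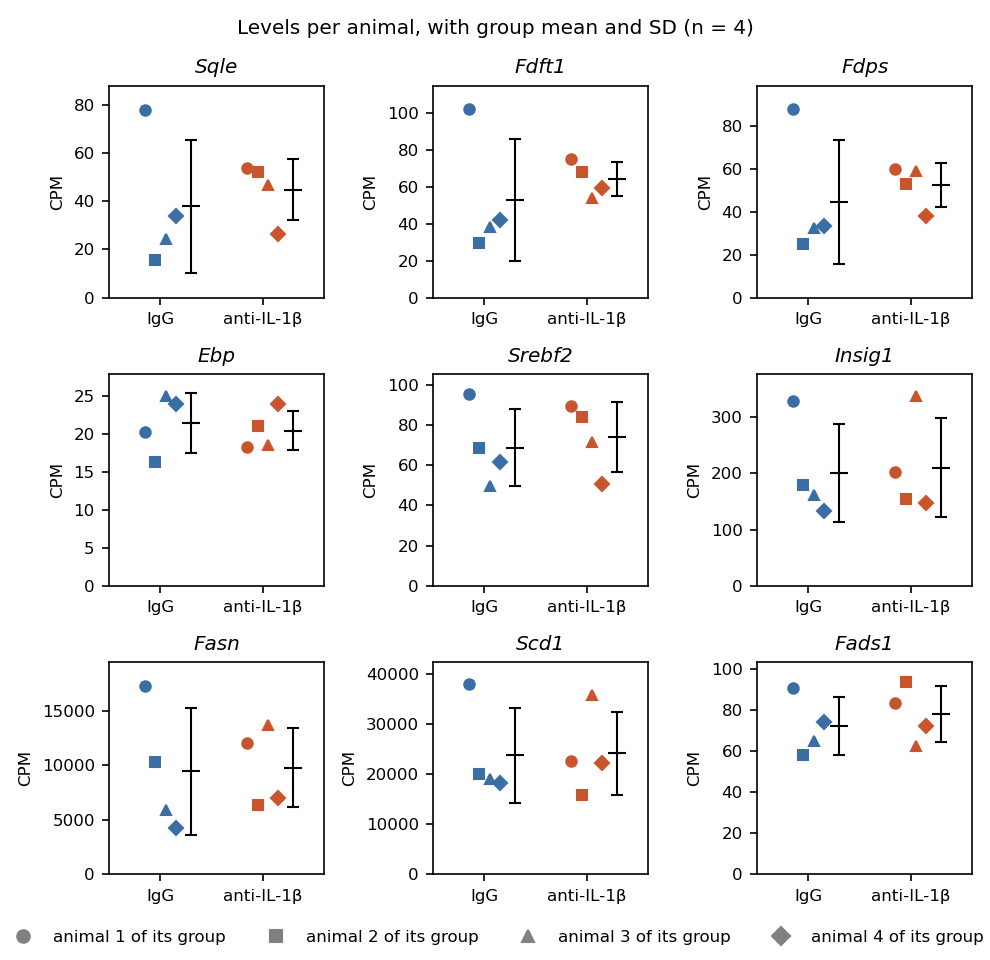
CPM of 9 members in each animal (points, with marker shape for the animal's number in its group; blue IgG, orange antibody), with the group mean and SD (n = 4) in black; the vertical axes are linear and start at 0. The circle of IgG animal 1 is the highest point for Sqle, Fdft1, Fdps, Srebf2, Fasn and Scd1, whereas Ebp lies between 16.3 and 25.03 CPM with no such point.

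Without IgG animal 1, most sterol genes, 12 of 16, were higher with the antibody at the unadjusted level, and none passed the adjustment. That animal was singled out after it was seen to be the highest for most of these members. Leaving it out therefore raises their fold changes and narrows the spread of the controls by construction. The counts and p values below describe the reduced fit and cannot serve as evidence of an antibody effect. The shares over all genes did not undergo that selection. In that fit these 12 sterol members were at an unadjusted p under 0.05 and higher, where 5.45% of all genes were: Acat2, Mvd, Idi1, Fdps, Fdft1, Sqle, Lss, Cyp51, Tm7sf2, Nsdhl, Hsd17b7 and Dhcr7. Mvk, Pmvk, Sc5d and Ebp did not reach it, with 0.45 ± 0.22, 0.45 ± 0.23, 0.43 ± 0.21 and -0.085 ± 0.17 on the log2 scale. None of the 11 fatty acid and 5 regulatory members reached it either, and 0 members were lower. In either direction 9.5% of all genes were at that level. Of 32 members 0 passed the adjusted threshold in edgeR (smallest adjusted p = 0.430, Fdft1). The median log2 fold change of the sterol members was 0.52, against 0.11 with all animals and -0.010 over all genes in the reduced fit. Of members, 31 of 32 were positive, Ebp again being the exception, against 47.9% of all genes. In the same fit all 16 macrophage genes were negative, and 9 of them were lower at an unadjusted p under 0.05, as were 646 of all 15973 genes.

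In the reduced fit, under the same selection, the groups separated for 3 members. Fdft1 had a log2 fold change of 0.81 ± 0.16 (95% interval 0.45 to 1.18), with 36.6 CPM as the mean of 3 IgG and 64.2 CPM as the mean of 4 antibody animals. Fdps had 0.80 ± 0.18 and Idi1 0.62 ± 0.22. These were the members in which every antibody animal exceeded every remaining control, which 2.97% of all genes did (7.93% did not overlap in either direction). Sqle had the largest estimate, 0.87 ± 0.30 (0.19 to 1.54), but antibody animal 4, at 26.4 CPM, lay below IgG animal 4, at 33.7 CPM. The count of 12 was smaller in 2 fits without IgG animal 1 that were added after the data were seen, each with a marker score as a term. With a score of 16 macrophage genes it was 2 sterol members, and with one of 16 adipocyte genes 9 sterol members and 1 fatty acid member.

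**Figure D3:**
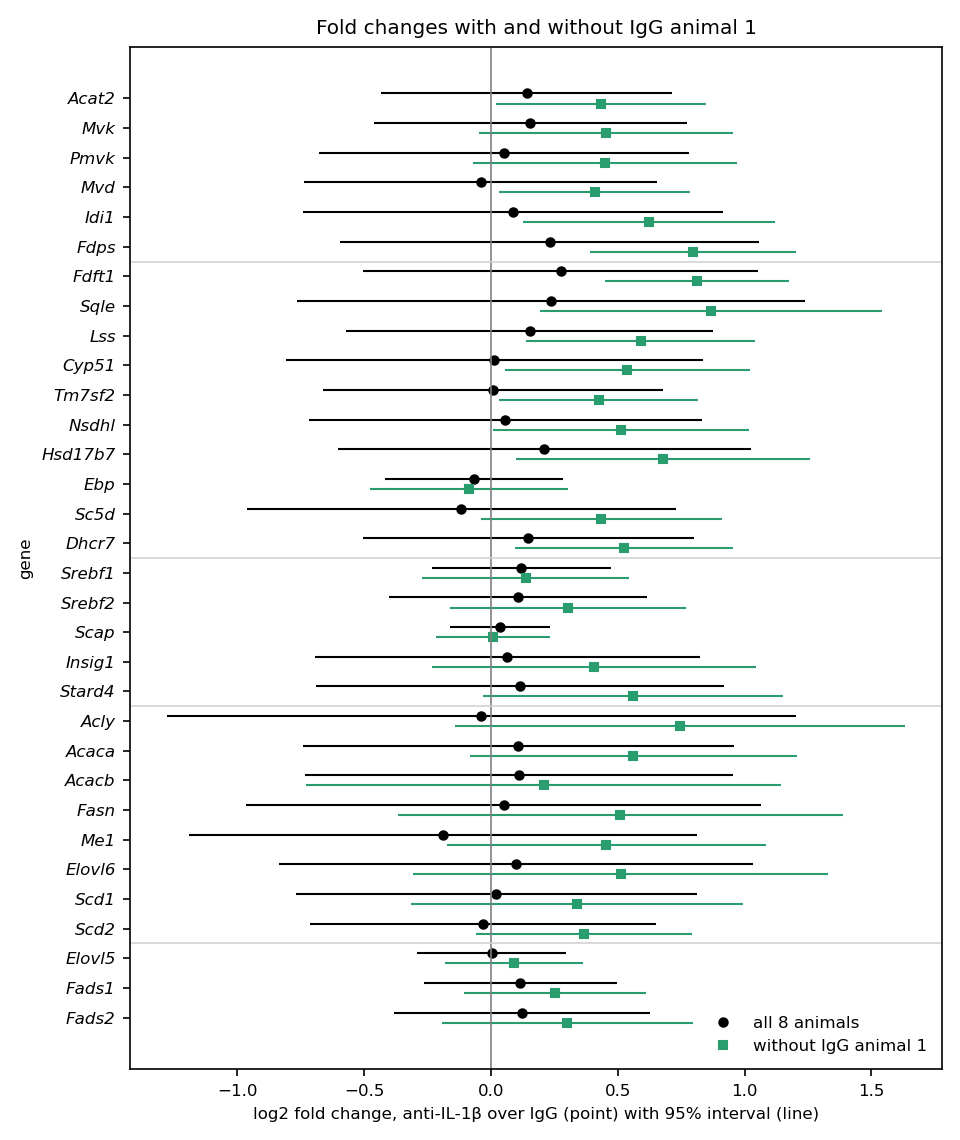
Log2 fold change (antibody over IgG) of each of the 32 counted members with its 95% interval from edgeR, with all 8 animals (black circles) and without IgG animal 1 (green squares). All black intervals cross 0, and 12 green ones, all of sterol pathway members, lie wholly above 0. IgG animal 1 was singled out after these values were seen.

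The order of animals was shared along the sterol pathway. Antibody animals 1, 2 and 3 were among the 4 highest animals for 15, 15 and 14 of 16 sterol members, as IgG animal 1 was for 15, whereas IgG animals 2, 3 and 4 were there for 1 each and antibody animal 4 for 2. IgG animal 2 was the lowest for 10 of 16. In this order 1 animal of each group stood with the opposite group. The library of IgG animal 2 had the lowest share of assigned alignments, 24.4%, and the highest share mapping to several places, 48.0%. The part of these shares in its levels was not tested. The median sterol member was 0.88 above its mean over animals in IgG animal 1 (log2 CPM), 0.12 to 0.38 above in antibody animals 1 to 3, and at -0.38 in antibody animal 4 and -0.43 to -0.31 in IgG animals 2 to 4.

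Among the regulators, Srebf2, Srebf1 and Scap differed by 1.92, 1.62 and 1.15-fold between the highest and lowest animal, less than the median member (2.64-fold). Srebf2, the SREBP-2 gene and itself an SREBP target, had 95.1, 68.4, 49.5 and 61.7 CPM in IgG animals 1 to 4 and 89.6, 84.1, 71.4 and 50.6 CPM in antibody animals 1 to 4. Srebf1 had 283, 323, 230.0 and 259 CPM in IgG animals 1 to 4 and 372, 264, 288 and 266 CPM in antibody animals 1 to 4. Srebf2 was highest in IgG animal 1 and antibody animal 1, while Srebf1 was highest in antibody animal 1 and differed by no more than 1.62-fold between any 2 animals. The log2 fold changes were 0.11 ± 0.23 for Srebf2 (95% interval -0.40 to 0.61) and 0.12 ± 0.16 for Srebf1 (-0.23 to 0.47). Without IgG animal 1 they were 0.30 ± 0.21 and 0.14 ± 0.18. Scap, the escort, was the least variable member, from 60.4 to 69.4 CPM, with 0.035 ± 0.087 (-0.16 to 0.23), and 0.0093 ± 0.099 without that animal.

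Insig1, the sterol-sensing brake on SREBP, had 329, 179.8, 162 and 132 CPM in IgG animals 1 to 4 and 203, 154, 337 and 147 CPM in antibody animals 1 to 4. Stard4, a cytosolic sterol carrier and SREBP-2 target, had 34.1, 14.1, 10.2 and 17.7 CPM in IgG animals 1 to 4 and 24.02, 24.2, 21.6 and 12.6 CPM in antibody animals 1 to 4. Insig1 peaked in antibody animal 3 and IgG animal 1, as several fatty acid genes did, and Stard4 in IgG animal 1, with antibody animals 1 to 3 next, as the sterol enzymes did. Their log2 fold changes were 0.065 ± 0.34 (95% interval -0.69 to 0.82) and 0.11 ± 0.36 (-0.69 to 0.92), and 0.41 ± 0.28 and 0.56 ± 0.26 without IgG animal 1.

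Fatty acid synthesis begins with acetyl-CoA from citrate. Acly, ATP citrate lyase, had 3312, 1157, 811 and 565 CPM in IgG animals 1 to 4 and 1996, 947, 1973 and 779 CPM in antibody animals 1 to 4. Acaca, acetyl-CoA carboxylase 1, had 2689, 1355, 1052 and 823 CPM in IgG animals 1 to 4 and 2061, 1152, 2008 and 1157 CPM in antibody animals 1 to 4. Fasn (mm9 chr11:120667272-120685861, minus strand) had 17292, 10274, 5842 and 4267 CPM in IgG animals 1 to 4 and 12040.5, 6343, 13626 and 6988 CPM in antibody animals 1 to 4. In all 3 genes IgG animal 1 was the highest and IgG animal 4 the lowest, 5.86, 3.27 and 4.05-fold apart, the antibody animals split into a high pair (1 and 3) and a low pair (2 and 4), and the groups overlapped throughout. The log2 fold changes were -0.038 ± 0.55 for Acly (95% interval -1.28 to 1.202), 0.11 ± 0.38 for Acaca (-0.74 to 0.96) and 0.050 ± 0.45 for Fasn (-0.97 to 1.07). Of these, the Acly and Fasn intervals reach past 2-fold. Acacb, the mitochondrial carboxylase whose product restrains fatty acid oxidation, had 459 to 1319.7 CPM, with antibody animal 3 and IgG animal 2 the highest, and 0.11 ± 0.38. Me1, malic enzyme, which supplies NADPH, had 580.2, 198, 198 and 136 CPM in IgG animals 1 to 4 and 276, 184, 354 and 161 CPM in antibody animals 1 to 4, with IgG animal 1 again the highest, and -0.19 ± 0.45 (-1.19 to 0.81).

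Elongation and desaturation followed. Elovl6, which lengthens palmitate, had 592, 324, 247 and 182 CPM in IgG animals 1 to 4 and 378, 219, 605 and 238 CPM in antibody animals 1 to 4. Scd1 (mm9 chr19:44468940-44482199, minus strand) had 38003, 19977, 19006 and 18117 CPM in IgG animals 1 to 4 and 22626, 15804, 35706 and 22303 CPM in antibody animals 1 to 4. Scd2, the desaturase paralog of brain and other tissues, had 1292, 606, 576 and 522 CPM in IgG animals 1 to 4 and 834, 716, 856 and 527 CPM in antibody animals 1 to 4. Elovl6 and Scd1 were high in the same 2 animals, IgG animal 1 and antibody animal 3, at 38003 and 35706 CPM of Scd1 against 15804 to 22626 CPM in the other 6, whereas for Scd2 antibody animal 3 was close to antibody animal 1. The log2 fold changes were 0.099 ± 0.42 (95% interval -0.84 to 1.03), 0.020 ± 0.35 (-0.77 to 0.81) and -0.030 ± 0.30 (-0.71 to 0.65). Scd1 and Scd2 have close paralogs, and reads that map to several places were not counted, so their levels are uncertain to the extent that the copies share sequence.

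The genes of polyunsaturated fatty acid synthesis varied least among the fatty acid genes. Fads1, the later front-end desaturase of the pathway, had 90.8, 58.1, 64.6 and 74.2 CPM in IgG animals 1 to 4 and 83.5, 93.7, 62.4 and 72.1 CPM in antibody animals 1 to 4. Fads2, its first desaturase, had 29.2, 22.3, 16.4 and 18.9 CPM in IgG animals 1 to 4 and 25.8, 31.5, 18.3 and 18.9 CPM in antibody animals 1 to 4. Both were highest in antibody animal 2, unlike any other member, and the groups overlapped. The log2 fold changes were 0.11 ± 0.17 for Fads1 (95% interval -0.27 to 0.49) and 0.12 ± 0.22 for Fads2 (-0.38 to 0.63). Elovl5, an elongase of polyunsaturated chains, had 114 to 152 CPM and 0.0025 ± 0.13 (-0.29 to 0.30).

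Without IgG animal 1 all 11 fatty acid members were positive, where 47.9% of all genes were, and 0 were at an unadjusted p under 0.05. Their median log2 fold change was 0.37, against 0.050 with all animals and -0.010 over all genes in the reduced fit. That animal was singled out after its values were seen. Where it held the highest control value, its removal raises the fold change by construction, so these values are no evidence of an antibody effect. Fasn had 0.51 ± 0.39 (95% interval -0.37 to 1.39), Acly 0.75 ± 0.39 (-0.14 to 1.63) and Scd1 0.34 ± 0.29 (-0.32 to 0.99). The order of animals was not that of the sterol genes: IgG animal 1 and antibody animals 1 and 3 were among the 4 highest for 11, 11 and 9 of 11 members and IgG animal 2 for 7, while antibody animal 2, high for sterol genes, was there for 3. IgG animal 4 was the lowest for 6 of 11.

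Markers of fat, macrophages and lymphoid cells also differed between the animals. The summed level of 16 white and general adipocyte genes was 6267 to 8631 CPM with IgG and 6648 to 13029 CPM with the antibody, the lowest being IgG animal 1 and the highest antibody animal 3. That of 10 brown adipocyte genes was 1872 to 2488 and 1718 to 5558 CPM, again highest in antibody animal 3, where Ucp1 alone had 3059.6 CPM. Of the white and general adipocyte genes 13 of 16 had fold changes above 0 (median log2 0.24, 0 at an unadjusted p under 0.05). Of the brown ones all 10 did (median 0.42, 2 at that level). Over all genes, 1.13% were higher and 2.06% lower at that level. All 16 macrophage genes had fold changes below 0 (median -0.31, 1 at that level), with sums of 6343 to 19549 CPM with IgG and 7878 to 11869.9 CPM with the antibody. IgG animal 1, the highest for most members, had the lowest macrophage sum of all 8. IgG animal 3, with the highest sum, was among the low animals for sterol genes. Other animals did not keep that order. IgG animal 2, the lowest for 10 of 16 sterol members, had a macrophage sum of 8445 CPM. Antibody animal 1, among the 4 highest for 15 of 16, had 9390 CPM. A link between macrophage content and the members was not tested. Spp1 (2074 CPM) and Gpnmb (1694 CPM) were the largest parts of the sum in IgG animal 1. By gene, Adgre1, Csf1r, Cd14 and Mrc1 were lowest in antibody animal 3, Fcgr1 in antibody animal 1 and Spp1 in IgG animal 2. The other macrophage genes were lowest in IgG animal 1. No gene of these 3 lists was at 0 in any library. The 10 nerve and Schwann cell genes, whose myelin-forming cells also make much cholesterol, summed to 448 to 696 CPM with IgG and 601 to 724 CPM with the antibody.

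Single markers in IgG animal 1 went different ways. Adipoq was at its lowest there, 176 CPM against 209 to 405 CPM in the others, while Lep, the fat hormone leptin, was at its highest, 103 CPM against 7.39 to 28.8 CPM. Plin1, which coats fat droplets, was 391 CPM, within the range of the others, so Fasn per Plin1 was 44.2 in IgG animal 1 and 12.3 to 25.8 in the others. Rag1, of developing thymocytes, was 46.3 CPM there, 38.8 CPM in antibody animal 2, and 0.0721 to 7.61 CPM in the other 6. Summed, the 10 T cell and thymus genes reached 114 CPM in the first of these and 95.2 CPM in the second, against 16.7 to 33.8 CPM elsewhere. Smooth muscle genes summed to 2374 to 3131 CPM with IgG and 1549 to 4241 CPM with the antibody, endothelial genes to 1679 to 2179 and 1718 to 1969 CPM, and epithelial and sebaceous genes to 173 to 272 and 185 to 274 CPM. Mgst1, which many cell types express, carried that last sum (159 to 264 CPM), and 7 of the 10 genes of the list were highest in IgG animal 1. Among keratin genes, Krt5, Krt8 and Krt14 had 7.15, 8.55 and 1.81 CPM there, against at most 0.195, 1.199 and 0.216 CPM in any other animal. Krt18 and Cdh1 differed less, with 12.2 and 6.95 CPM there against at most 7.29 and 4.42 CPM in any other animal. Epcam, an epithelial adhesion gene, had 0.890 CPM against at most 0.364 CPM. All 8 B cell genes and all 10 proliferation genes had fold changes below 0. Of these, 4 and 6 were at an unadjusted p under 0.05, where 2.06% of all genes were lower. The B cell sums were 55.7 to 97.5 CPM with IgG and 36.9 to 53.95 CPM with the antibody, and the proliferation sums 195 to 277 and 131 to 189 CPM. Cd22 was the highest B cell gene in each animal, at 30.1 to 51.7 CPM, with a log2 fold change of -0.31 ± 0.17. The part of these other tissues in the members' levels was not tested.

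**Figure D4:**
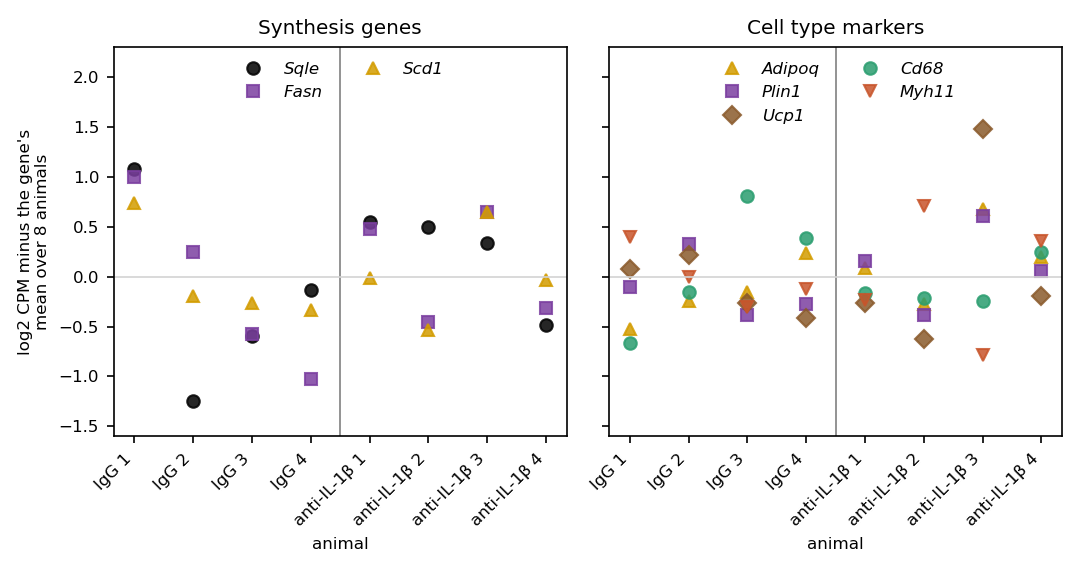
Levels per animal as log2 CPM minus the gene's mean over the 8 animals, for 3 synthesis genes (left) and 5 cell type markers (right); the vertical line separates IgG from antibody animals. In IgG animal 1 the synthesis genes are the highest of all animals while Adipoq and Cd68 are the lowest, and in antibody animal 3 Fasn and Scd1 are high together with Adipoq, Plin1 and Ucp1.

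The direction of the small fold changes was not kept in every alternative fit. Leaving out 1 animal, with no covariate, gave from 12 (without IgG animal 3) to 31 (without IgG animal 1) positive members of 32. It was 14 without IgG animal 4 or antibody animal 3. Marker scores were also used as covariates over all 8 animals. With the macrophage score as a term, 6 of 32 members were positive, in place of 26, with medians of -0.083 for sterol and -0.15 for fatty acid members. With the adipocyte score, 22 were positive, and the medians were 0.19 for sterol and -0.12 for fatty acid members. In both fits 0 members were at an unadjusted p under 0.05. Leaving out a single animal gave medians from -0.024 (without IgG animal 2) to 0.52 (without IgG animal 1) for sterol members and from -0.15 (without antibody animal 3) to 0.37 (without IgG animal 1) for fatty acid members. Limma-voom with sample quality weights gave the highest fatty acid median, 0.55, with 0.37 for sterol members and 5 members higher at an unadjusted p under 0.05 (2 sterol and 3 fatty acid), where 8.02% of all genes were.

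**Figure D5:**
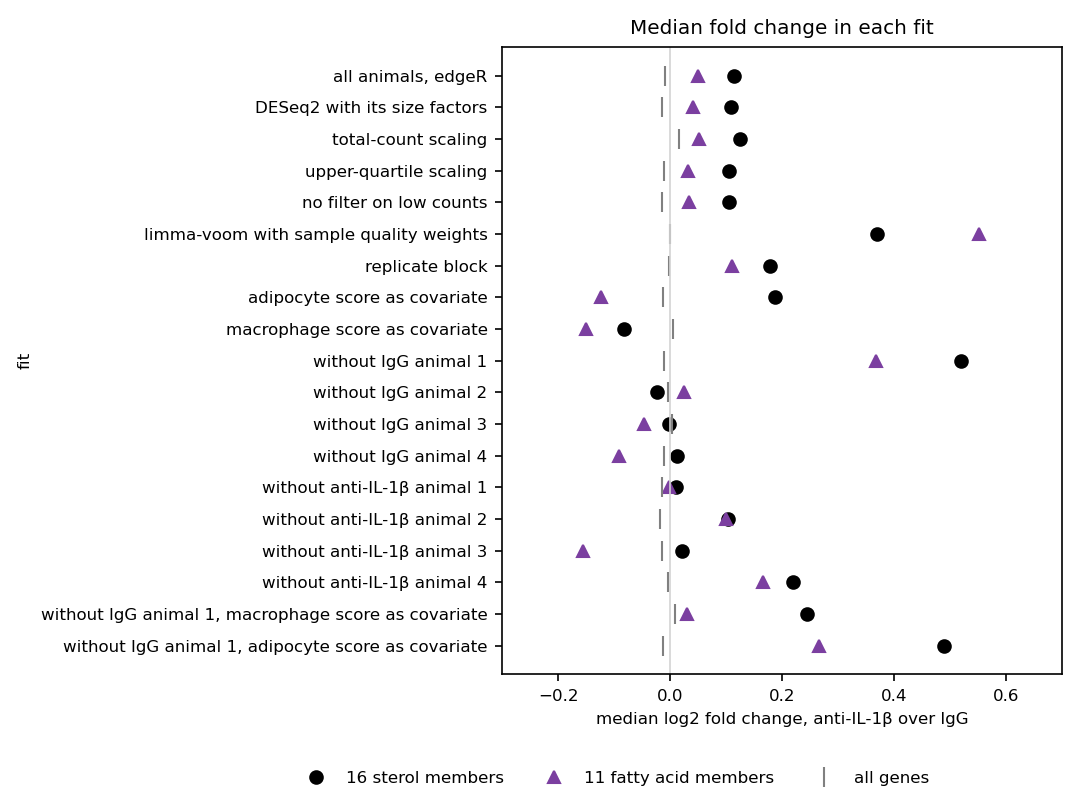
Median log2 fold change (antibody over IgG) of the 16 sterol members (circles), the 11 fatty acid members (triangles) and all genes tested (grey bars) in the main fit and 18 alternatives. The median over all genes lies between -0.018 and 0.015, while the fatty acid median lies below 0 with either marker score over all animals and the sterol median lies between -0.083 and 0.52.

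With all 8 animals, other genes of the pathways gave no call either. Of 16 further sterol genes 9 were positive and 0 were at an unadjusted p under 0.05, with a median log2 fold change of 0.028. Msmo1, a sterol demethylation enzyme, had 73.3, 18.6, 38.4 and 40.5 CPM in IgG animals 1 to 4 and 50.1, 54.0, 46.6 and 34.3 CPM in antibody animals 1 to 4, highest in IgG animal 1 and lowest in IgG animal 2 as for most of the enzymes around it. Its log2 fold change was 0.11 ± 0.34 (95% interval -0.66 to 0.88). Ggps1, which makes geranylgeranyl diphosphate, had the smallest p of the list, with 19.7 to 31.6 CPM and 0.18 ± 0.14 (-0.13 to 0.49). Without IgG animal 1 the list had 11 of 16 positive, a median of 0.062, 2 genes higher and 1 lower at an unadjusted p under 0.05, and 0 past the adjusted threshold in edgeR.

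Of 21 further fatty acid and glyceride genes 15 were positive and 0 were at an unadjusted p under 0.05, with a median of 0.085. Acss2, which makes acetyl-CoA from acetate, had 517, 215, 151 and 103 CPM in IgG animals 1 to 4 and 309.8, 156, 332 and 152 CPM in antibody animals 1 to 4, with IgG animals 1 and 2 and antibody animals 1 and 3 the highest as for Acly, and a log2 fold change of -0.053 ± 0.49. Thrsp, a lipogenic activator, had 288 to 966 CPM and 0.18 ± 0.40. Mlxipl, the carbohydrate-responsive factor ChREBP, had 49.6 to 149 CPM and 0.082 ± 0.44, with the same 4 animals high, IgG 1 and 2 and antibody 1 and 3, that led for the fatty acid members. Elovl1, an elongase of saturated very long chains, had the smallest p of the list and a negative fold change, -0.32 ± 0.17 (95% interval -0.69 to 0.053). Dgat2, which makes triglyceride and is also among the adipocyte genes, had 0.40 ± 0.22 (-0.095 to 0.89) and Mcat, of mitochondrial fatty acid synthesis, 0.24 ± 0.14 (-0.071 to 0.55). Without IgG animal 1, 18 of 21 were positive, where 47.9% of all genes were, with a median of 0.26. At an unadjusted p under 0.05 there were 4 higher and 1 lower, where 5.45% of all genes were higher and 646 of 15973 lower. Of the list 0 passed the adjusted threshold in edgeR. Leaving out that animal raises the fold change, by construction, of each gene for which it was the highest control.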

How the data were processed

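Libraries of total RNA from 8 animals, 4 per group, were grouped by the labels. The deposited table held raw counts per gene, made with featureCounts 1.4.6-p4 over exons of a UCSC mm9 annotation with no strand, pair or multiple-mapping option, per the file headers; its other numeric column is the exon length in bases. Reads that mapped to several places were 35.2% to 48.0% of alignments and were not assigned, per the deposited counting summary, which also left 0.334% to 0.507% as ambiguous. The submitters' processing notes also name CASAVA, STAR 3.0, Subread and DESeq2 without their roles.

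The 33 members, 2 further pathway lists and 10 marker lists were chosen with earlier results of these data known. All members are named; 20 fixed by name are shown with every animal, the others by range or mean, and from the pathway lists 6 genes fixed by name and the 3 smallest p values per list, of which some are not reported here. Genes were kept by edgeR's filterByExpr (count minimum 10, total 15) and scaled by TMM, and the groups were compared with edgeR 4.0.16 (R 4.3.3; robust quasi-likelihood F-test, Benjamini-Hochberg adjustment over 15980 genes, threshold 0.05) without covariates. CPM used TMM library sizes. Alternatives were DESeq2 1.42.0, limma 3.58.1 (voom with sample quality weights), other scalings, no filter, a replicate block, marker score covariates, and each animal left out. On simulated counts with 4 animals a group, edgeR recovered 50 of 100 genes changed 2-fold and 95 of 100 changed 4-fold, with 11 false calls among 15841 genes. The changed genes were drawn from genes in general, whose median SE was 0.18 in the real data, against 0.34 for members. Recovery among members was not simulated, and these rates may overstate it.

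With 20137336 to 29453014 assigned counts per library, the counted members had from 125 (Tm7sf2) to 1110751 (Scd1) counts in a library, and counting error weighs most on the lowest. Promoter windows came from a RefSeq table (GRCm38.p6); the mm9 genome was not used here, and no coordinates were converted.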

Additional observations from a re-analysis of the deposited data

Results flagged for a closer look

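In a group of 4 animals, a value was picked out where its gap to the nearest other animal, as a share of the group's whole range, exceeded Dixon's 95% critical value for 4 samples. Of 64 groups examined (32 members in 2 groups), 13 were picked out, and chance alone picks out about 1 in 20 groups; members of 1 pathway share their animals and are not independent. In 12 of the 13 the animal was IgG animal 1, above the other controls. The gap was 0.874 of the range for Acat2, 0.881 for Mvd, 0.861 for Fdps, 0.880 for Lss, 0.856 for Cyp51, 0.844 for Tm7sf2, 0.967 for Nsdhl, 0.937 for Sc5d and 0.944 for Dhcr7, all enzymes of sterol synthesis. Among fatty acid genes it was 0.861 for Me1, 0.906 for Scd1 and 0.891 for Scd2. The remaining one was antibody animal 4, below the other antibody animals for Tm7sf2, with a gap of 0.922 of the range.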

How the results depend on the processing

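In all 18 alternatives 0 members passed an adjusted p of 0.05 (lowest 0.227, limma-voom). Over all genes the count was 0 with edgeR, 8 with DESeq2 and 2 with limma-voom, and 0 to 1 with 1 animal left out (1 without IgG animal 1 or antibody animal 2). At an unadjusted p under 0.05 it was 509 genes, 2772 with limma-voom, 310 (without IgG animal 4) to 1517 (without IgG animal 1) with 1 animal left out, and, in alternatives added after seeing the data, 1734 and 1517 without IgG animal 1 and with the macrophage or the adipocyte score as a covariate. Members at that level and higher numbered 0, 5 with limma-voom, 0 to 12 with 1 animal left out (12 without IgG animal 1), and 2 and 10 in the added alternatives; members lower numbered 0 in the main fit and in each alternative. The fatty acid median of 0.050 became 0.55 with limma-voom. The cause of these shifts was not tested. Single members changed sign in 138 of 576 refits (29 of 32 genes), with an adjusted p under 0.05 in none of them. The labels state no pairing of animals with the same number. The correlations of their deviations from the group mean were 0.29, -0.34, -0.13 and -0.0012. IgG animal 1 and antibody animal 1 were each other's closest match. These 4 values cannot show whether animals were paired. With the replicate number as a block, 0 genes passed the adjusted threshold, 361 were at an unadjusted p under 0.05, 0 members were among them in either direction, and the medians were 0.18 for sterol and 0.11 for fatty acid members. Each group has 4 animals, and the interval of 8 of 32 members reaches past 2-fold.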
